A study of Mus musculus with 12 samples.

Results

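The interferon response genes are a list of 41 mouse genes that type I or type II interferon is known to induce, together with the transcription factors that carry the signal. The list was fixed by symbol, with earlier results of these data known. Each gene was read from the brightest probe set that the platform table assigns to it alone, over 12 Affymetrix arrays of sorted thymocytes. A probe set of its own was found for 39 of the 41, out of 18194 genes measured. The only probe set of Isg15 also carries another gene and was not used, and Ifi44 was named by no probe set. Of the 39, 37 reached the median of their array on at least 2 arrays and were tested. The antiviral GTPase genes Mx1 and Mx2 did not, with log2 signals of 4.07 to 4.52 and 4.57 to 5.11.

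The arrays fall into 6 groups of 2, from the thymus of wild-type (WT) and IkL/L mice and from 3 successive stages of T cell development, called DN3, DN4 and DP. Double-negative (DN) thymocytes lack CD4 and CD8, and double-positive (DP) thymocytes have gained both. Per the series, IkL/L cells are Ikaros-deficient. IkL is a hypomorphic allele of Ikzf1, the gene of the lymphoid transcription factor Ikaros, made by inserting a lacZ reporter, and it is carried in the germ line. Cells of 3 mice were pooled for a sort, no treatment is recorded, and strain and age are not given in the sources used here. Whether paired arrays came from different pools of mice is not recorded, so the spread between the WT arrays may be technical; the paired IkL/L arrays differ in Y-linked signal, given below, and so do not come from the same mice.

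Interferons act through receptors that activate JAK kinases and STAT proteins. Type I interferon acts mainly through the interferon-stimulated response element (ISRE), which a complex with STAT2 and IRF9 binds, and interferon gamma through the gamma-activated site (GAS). The induced genes encode sensors of viral nucleic acid, proteins that block virus entry, replication or release, GTPases that attack intracellular parasites, and regulators such as USP18 that dampen the signal. In the thymus, thymic epithelium makes some interferon without infection, and thymocytes carry the receptors.

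The promoters of the listed genes are shown first because most of these genes are known to be read through such elements. RefSeq promoters of build GRCm38.p6, from 250 bases before to 50 bases after a transcription start, were found for 31 of the 41 genes, as 38 promoters. Dhx58, Ly6e, Mx1, Mx2, Oas2, Parp14, Parp9, Rtp4, Usp18 and Zbp1 had no entry. An ISRE-like motif, GAAANNGAAA on either strand, was present in 17 of the 38 promoters (44.7%), belonging to 16 genes, against 1131 of all 32851 promoters (3.44%). A GAS-like motif, TTCNNNGAA, was present in 9 of the 38 (23.7%) against 8.30% of all promoters. Matches of the 2 motifs can overlap. A match describes the letters and is not a measured binding site.

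The stretches below show where the ISRE-like letters lie in 4 genes that were higher in IkL/L DP cells and in 2 well-known interferon targets that did not pass the genotype test at any stage, Igtp and Ifit1. Capitals mark the matches, and each stretch is written 5′ to 3′ on the strand of the gene. In Bst2 (chr8:71537566-71537625, minus strand) and Irgm1 (chr11:48871421-48871480, minus strand), 2 matches overlap. The Ifih1 stretch (chr2:62646206-62646235, minus strand) and the Ifitm3 stretch (chr7:141010715-141010744, minus strand) lie just after the start. Igtp (chr11:58199496-58199555, plus strand) has 1 match, and Ifit1 (chr19:34640769-34640828, plus strand) has 2, written as they read on the other strand.
Bst2: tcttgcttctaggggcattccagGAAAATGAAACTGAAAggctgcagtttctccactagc
Irgm1: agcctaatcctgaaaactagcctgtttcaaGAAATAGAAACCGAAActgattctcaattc
Ifih1: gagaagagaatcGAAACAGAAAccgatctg
Ifitm3: agGAAAAGGAAActtctgaGAAACCGAAAc
Igtp: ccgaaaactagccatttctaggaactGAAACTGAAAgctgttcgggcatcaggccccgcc
Ifit1: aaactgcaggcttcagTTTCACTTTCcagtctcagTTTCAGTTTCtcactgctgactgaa

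The next 2 stretches, the 60 bases before the start of Parp12 (chr6:39118350-39118409, minus strand) and Epsti1 (chr14:77904179-77904238, plus strand), hold no match, and neither gene had one elsewhere in its promoter window. They are shown because Parp12 was higher and Epsti1 lower in IkL/L cells. Of the 8 genes that differed between genotypes in DP cells, 6 had a promoter entry and 4 of those an ISRE-like match, beside 12 of the other 25 genes. Those 25 include Isg15, which has matches, and Ifi44, and for neither was a signal read.
Parp12: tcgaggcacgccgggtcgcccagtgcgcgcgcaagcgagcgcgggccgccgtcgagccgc
Epsti1: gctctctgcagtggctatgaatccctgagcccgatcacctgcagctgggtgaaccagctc

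**Figure D1:**
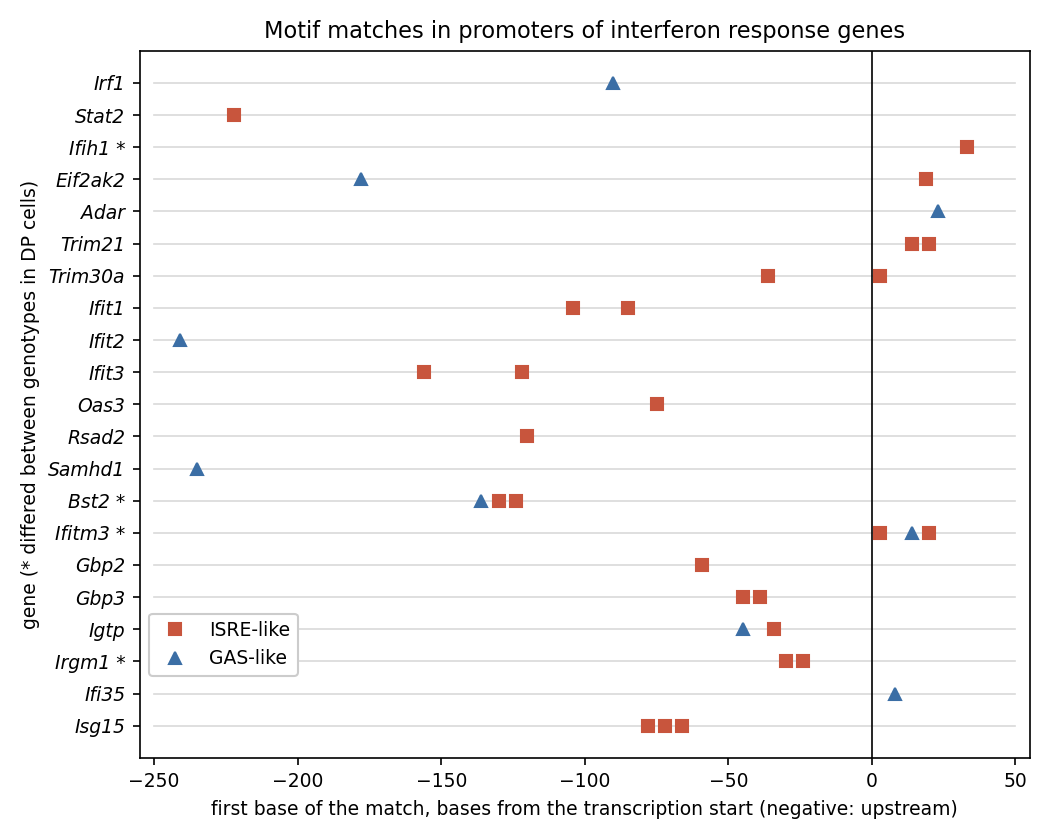
Position of the first base of each ISRE-like match (squares) and GAS-like match (triangles) relative to the transcription start, in bases, for the listed genes with a match in any of their promoters. Genes with an asterisk differed between genotypes in DP cells. Isg15, drawn without one, had no probe set of its own and was not tested. The 4 starred genes are Ifih1, Bst2, Ifitm3 and Irgm1, and matches lie on both sides of the start.

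All values are log2 signals as deposited. The array medians lay between 5.14 and 5.22, and a signal below them may be mostly background. Ikzf1 itself was lower in IkL/L cells by a log2 difference of -0.65 in DN3, -0.63 in DN4 and -0.70 in DP cells (adjusted p = 0.00911, 0.0101 and 0.00454). Where its probe set lies relative to the inserted reporter is not known here. The stage markers Il2ra and Cd4 followed the labels. Il2ra was at 10.3 to 10.72 on the DN3 arrays and at most 6.25 elsewhere. Cd4 was at 10.57 to 11.3 on the DP arrays and at most 6.51 elsewhere. Some stage markers differed between genotypes, and the part of this in the results was not tested. In IkL/L DP cells the DN3 markers Dtx1, Ptcra and Notch3 were higher by 2.53, 1.63 and 0.83 (adjusted p = 0.00039, 0.00027 and 0.00611), while Hes1 and Il2ra did not pass. In IkL/L DN4 cells the DP marker Cd8b1 was lower by -1.65 (adjusted p = 0.00109) and Il2ra by -0.80 (0.0415). Of 50 genes in 7 lists of other cell types, 20 were below the array median on all 12 arrays: 4 of 6 B cell genes, 5 of 10 myeloid genes, 4 of 7 NK and innate lymphoid genes, 3 of 7 stromal genes, 2 of 10 dendritic cell genes, 1 of 3 erythroid genes and 1 of 7 genes of mature T cells. In the dendritic cell list the class II gene H2-Ab1 was higher in IkL/L cells at all 3 stages, by 1.44, 1.11 and 1.38 (adjusted p = 0.000886, 0.00547 and 0.00109), as was Tcf4, by 0.60, 0.86 and 0.67 (adjusted p = 0.036, 0.00447 and 0.0158), and H2-Aa was higher in DN3 cells, by 1.94 (adjusted p = 0.0325). Of the same list, Cd74 was lower in IkL/L DN4 cells by -0.745 (adjusted p = 0.0457) and Irf8 in IkL/L DP cells by -0.65 (0.0298). In DN3 cells Cd74 was higher by 0.85 (adjusted p = 0.0321). The dendritic cell genes Itgax and Batf3 were the ones below the median on all 12 arrays, and the plasmacytoid marker Siglech stayed between 4.82 and 5.50. The mean of the 10 dendritic cell genes was 6.15 to 6.22 on WT and 6.62 to 6.69 on IkL/L DN3 arrays, 6.43 to 6.53 and 6.34 to 6.47 at DN4, and 5.88 to 6.10 and 5.98 to 6.22 at DP. In the NK and innate lymphoid list Gzma and Tbx21 were higher in IkL/L DP cells, by 2.11 and 0.85 (adjusted p = 3.74e-05 and 0.0158). Nkg7 of that list was lower in IkL/L DN3 and DN4 cells, by -1.735 and -2.295 (adjusted p = 0.000591 and 8.5e-05). Of the genes of mature T cells, the activation marker Cd69 was lower in IkL/L DN4 cells by -3.065 (adjusted p = 0.00287). In the same cells the stromal gene Epcam was lower by -0.64 (adjusted p = 0.035) and the thymocyte gene Cd3g higher by 0.96 (adjusted p = 0.01). The part of other cell types in the genotype differences was not tested. The neutrophil gene S100a8 was high on IkL/L DN3 replicate 1 (8.96) and IkL/L DN4 replicate 1 (7.09), beside 4.49 to 6.43 on the other arrays, as was the erythroid gene Alas2 (8.80 and 8.64, beside 4.95 to 7.13), and the list means of 10 myeloid genes on the IkL/L DN3 arrays were 5.04 and 5.82, beside 4.64 to 5.07 on all others. The female-specific RNA Xist was at 10.33 to 12.7 on all 12 arrays. The 3 IkL/L replicate 2 arrays lacked Y-linked signal (Eif2s3y at 2.82 to 3.12, beside 7.78 to 9.58 on the other arrays). Genotype results of the interferon response genes are therefore also given without these 3 arrays where that ends a call. For the genes of the other lists they are not given without these arrays.

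In DP cells 7 of the 37 tested genes were higher in IkL/L than in WT cells and 1 was lower. Over all 11649 tested genes 4.36% were called higher and 1.62% lower, at a limma adjusted p under 0.05. The list was chosen with earlier results of these data known, so its counts are not independent of that choice. The genes that rose were Ifitm3, Usp18, Rtp4, Ifih1, Parp12, Irgm1 and Bst2, and the gene that fell was Epsti1. The median difference over the 39 genes was 0.36 on the log2 scale, beside 0.03 over all tested genes, and 29 of the 37 tested genes had a positive difference. The actin controls, read at the 3′ and the 5′ end of the message as a sign of RNA quality, were apart by 2.29 and 2.86 on the WT DP arrays and by 2.26 and 2.64 on the IkL/L DP arrays, so these overlapped. Among the genes of mature T cells, IkL/L DP replicate 2 stood apart from the other DP arrays, with Il7r at 7.72 beside 5.48 to 6.29, Klf2 at 6.89 beside 5.50 to 5.93, and a list mean of 7.08 beside 6.11 to 6.52. All 8 genes were also called without that array.

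In DN4 cells 4 genes were higher (Ifitm3, Ifih1, Parp12 and Rtp4; all tested genes 4.4%) and 2 lower (Epsti1 and Samhd1; all tested genes 2.48%). The median over the 39 genes was 0.21, beside -0.002 over all genes. In DN3 cells 2 were higher (Ifitm3 and Oasl2; all tested genes 2.08%) and 1 lower (Epsti1; all tested genes 2.21%), and the median was -0.05, beside -0.04 over all genes. The actin controls were apart by 1.74 and 1.93 on the WT DN4 arrays and by 1.93 and 2.39 on the IkL/L DN4 arrays, which lay at or above them, and with this value as a covariate the DN4 count was 9. On replicates 1 and 2 at DN3 they were apart by 2.147 and 2.044 in WT and by 1.921 and 2.855 in IkL/L cells. The DN4 count fell to 2 when WT replicate 2 or IkL/L replicate 1 of that stage was left out, and to 3 without WT replicate 1. Fewer cells that express a gene and less RNA per cell cannot be told apart in these bulk samples.

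**Figure D2:**
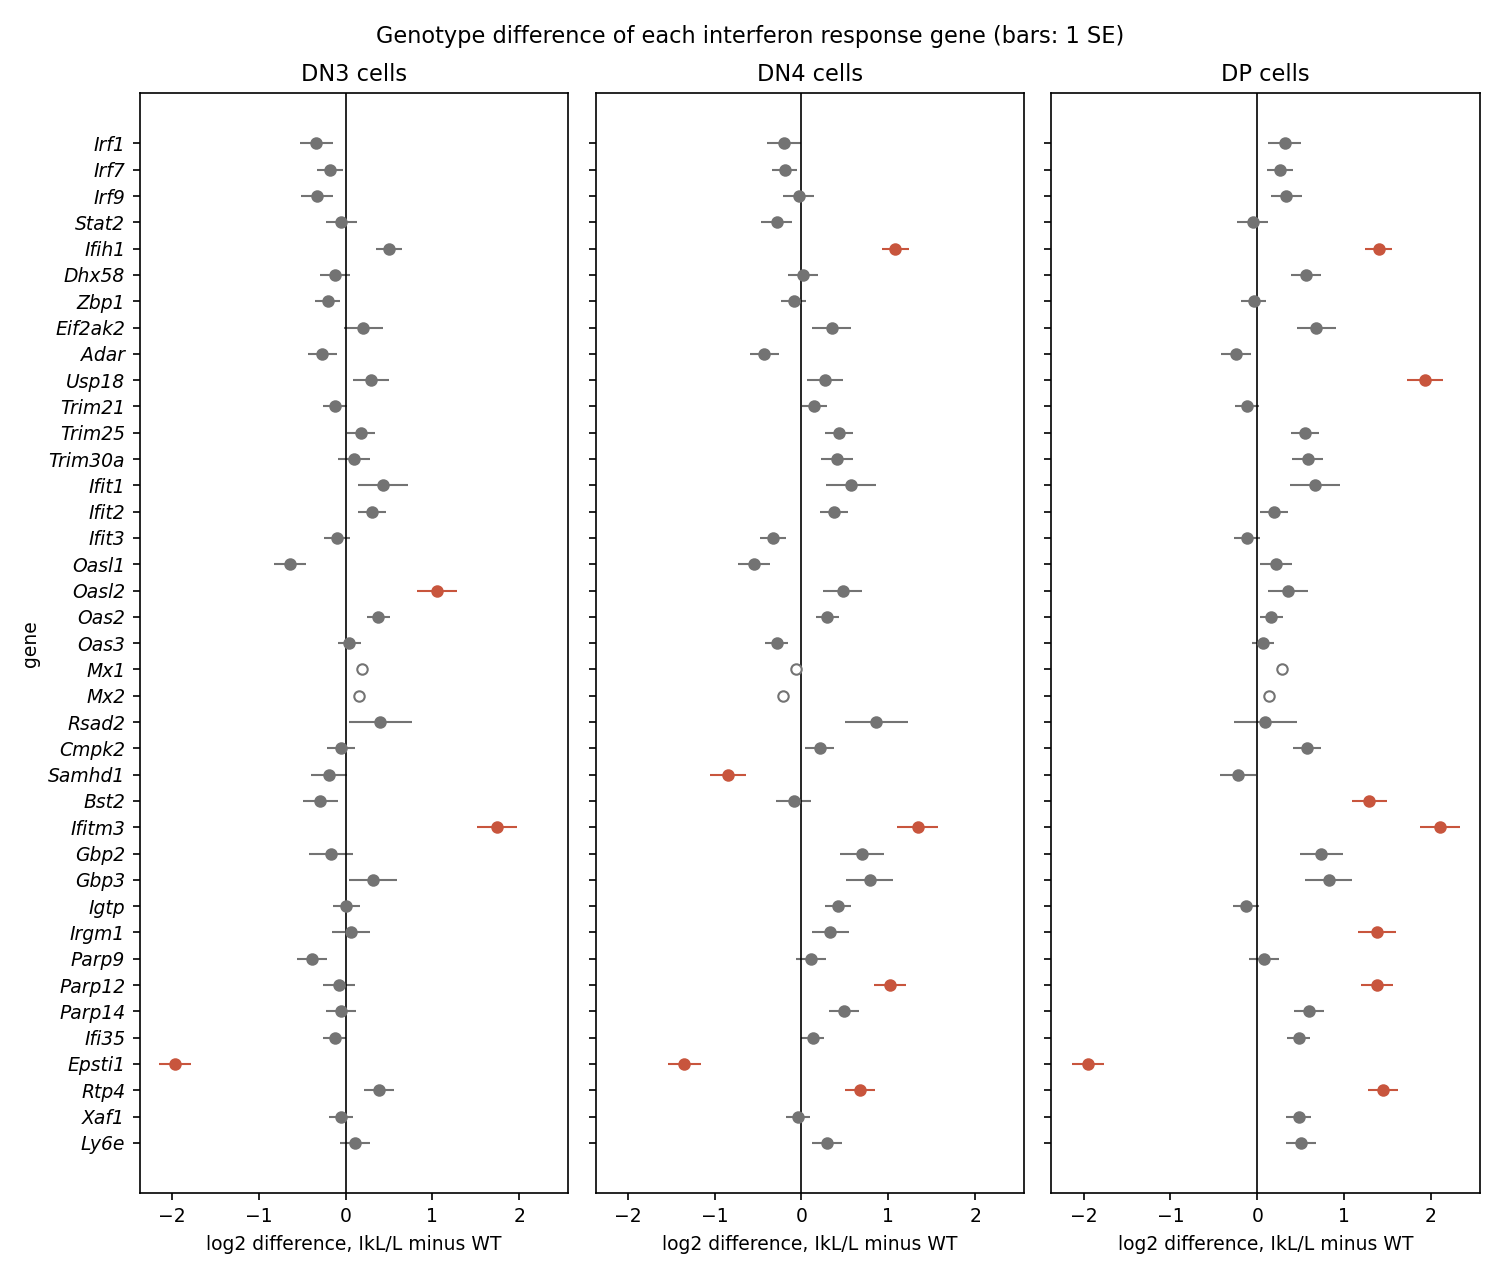
Log2 difference, IkL/L minus WT, of each of the 39 genes in DN3, DN4 and DP cells, with bars of 1 moderated standard error. Coloured points passed the test, and open points without bars (Mx1 and Mx2) were not tested. Epsti1 lies to the left in all 3 panels and Ifitm3 to the right, while Usp18, Bst2 and Irgm1 stand out in the DP panel alone.

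The transcription factors of the response did not pass the genotype test at any stage, also at an unadjusted p under 0.05. Irf1, Irf7, Irf9 and Stat2, which encode the activators of interferon-induced transcription, differed by -0.34 to -0.05 in DN3 cells, by -0.28 to -0.03 in DN4 cells and by -0.05 to 0.33 in DP cells. Irf7, itself a target of the pathway, ran from 5.52 to 6.30 over the 12 arrays, not far above the array medians. In DP cells its WT values were 5.52 and 5.85 and its IkL/L values 6.06 and 5.83, which overlap. Irf9, the DNA-binding partner of the STATs, gave 6.98 and 7.28 in WT and 7.44 and 7.49 in IkL/L DP cells, a difference of 0.33 ± 0.18 (SE; adjusted p = 0.366).

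Among the 5 sensors of foreign or self nucleic acid, Ifih1 differed between the genotypes. Ifih1 encodes MDA5, the cytosolic sensor of long double-stranded RNA. Its WT signals were 9.62 and 9.51 in DN3, 8.03 and 7.99 in DN4 and 7.35 and 7.44 in DP cells. Its IkL/L signals were 10.20 and 9.93, 9.24 and 8.93, and 8.65 and 8.94. Each IkL/L array lay above both WT arrays of its stage. The difference was 0.50 ± 0.15 (SE) in DN3 cells, which did not pass the test (adjusted p = 0.114), 1.08 ± 0.15 in DN4 cells (adjusted p = 0.00158) and 1.40 ± 0.15 in DP cells (adjusted p = 0.000163), a 2.64-fold higher signal. Dhx58, the regulator LGP2, and Eif2ak2, the kinase PKR, were higher in DP cells by 0.57 and 0.68 without passing (adjusted p = 0.086 and 0.111). A dimmer probe set of Eif2ak2 differed by 0.91 in DP cells and passed over all probe sets (adjusted p = 0.0474), and the other by 0.23 (adjusted p = 0.532). Zbp1 and the RNA-editing enzyme gene Adar differed by -0.43 to -0.04 at all stages and did not pass. Another probe set of Adar went the other way in DN3 and DN4 cells, at 0.66 and 1.42, and did not pass over all probe sets.

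Usp18 was higher in IkL/L cells at DP but passed at neither earlier stage. It encodes the protease that removes ISG15 from proteins and blocks the type I interferon receptor. WT DN3 cells gave 7.43 and 7.20, WT DN4 cells 7.46 and 7.52, and WT DP cells 5.72 and 6.44. IkL/L cells gave 7.76 and 7.45, 7.79 and 7.73, and 7.93 and 8.10 at the same stages. In DP cells the signal was thus 3.82-fold higher in IkL/L, a log2 difference of 1.93 ± 0.21 (adjusted p = 0.000137), while in DN3 and DN4 cells the difference was at most 0.29 and did not pass. The ubiquitin ligase genes Trim21, Trim25 and Trim30a differed by -0.12 to 0.58 over the 3 stages, with Trim25 and Trim30a at 0.55 and 0.58 in DP cells (adjusted p = 0.0738 and 0.0897). A dimmer probe set of Trim25 had the opposite sign at every stage, from -0.32 to -0.12.

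**Figure D3:**
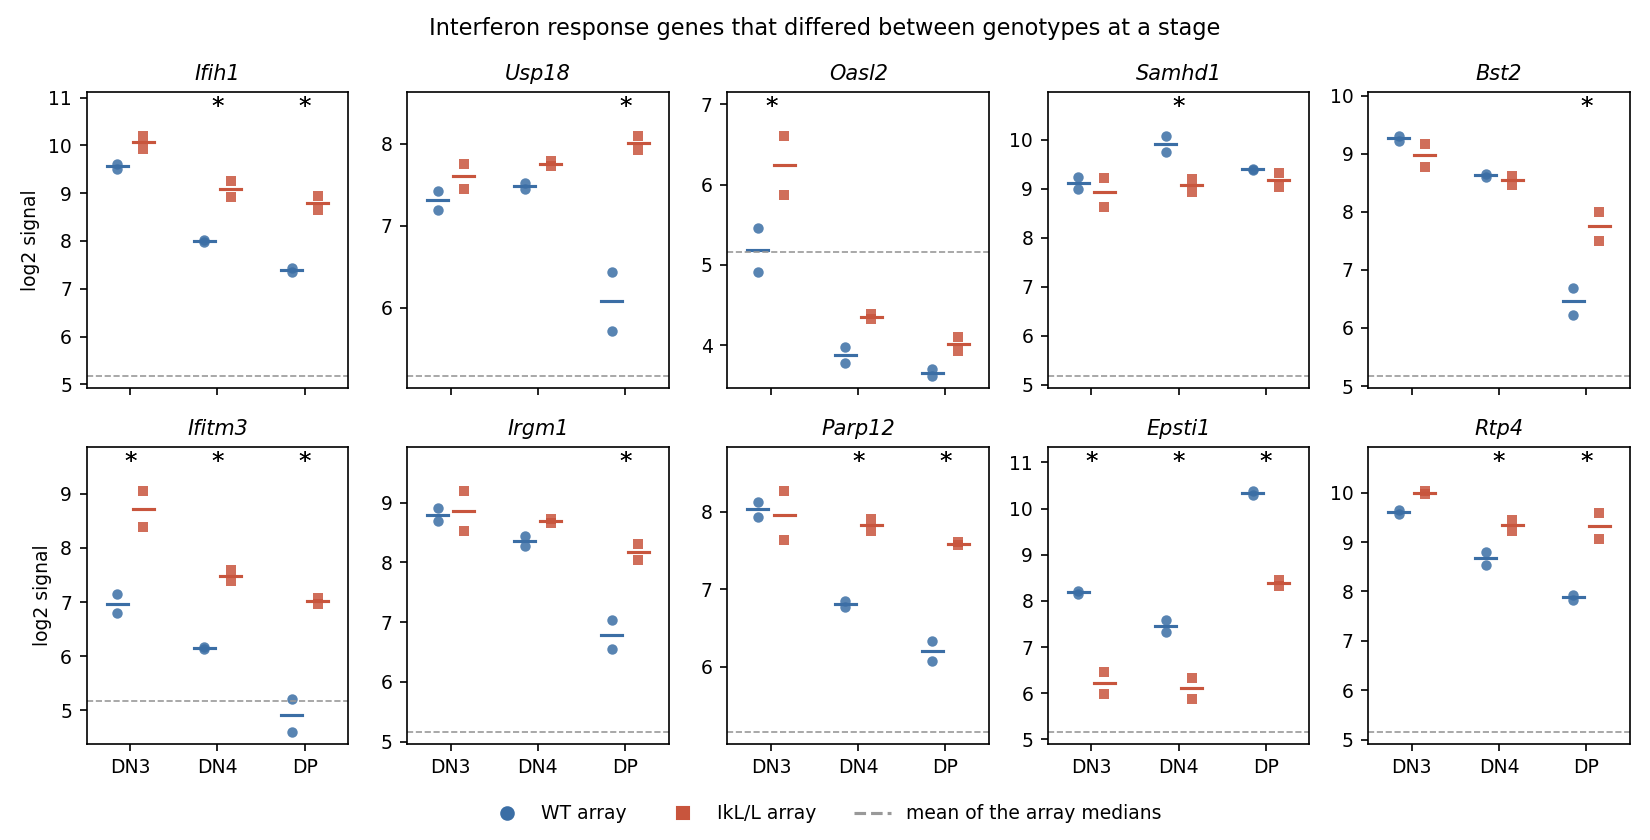
Log2 signal of the 10 genes that differed between genotypes at 1 or more stages, on each WT array (circles) and each IkL/L array (squares), with a bar at the mean of each pair and an asterisk over a stage where the test passed. The dashed line is the mean of the array medians. In WT cells Usp18, Bst2, Irgm1 and Parp12 are lowest at DP, and the IkL/L DP arrays lie above both WT DP arrays.

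The direct antiviral proteins formed the largest group, with 12 of 14 genes tested, and Ifitm3 was higher in IkL/L cells at all 3 stages. Ifitm3 encodes a membrane protein that blocks the entry of enveloped viruses. Its WT signals were 6.79 and 7.15 in DN3, 6.14 and 6.16 in DN4 and 4.61 and 5.21 in DP cells, where they lie near the array median. Its IkL/L signals were 9.05 and 8.39, 7.60 and 7.38, and 7.07 and 6.96. No WT array reached an IkL/L array of the same stage. The differences were 1.75 ± 0.23 (adjusted p = 0.00083), 1.34 ± 0.23 (adjusted p = 0.00547) and 2.10 ± 0.23 (adjusted p = 0.000165), or 3.35-fold, 2.53-fold and 4.30-fold. Leaving out DN4 replicate 2 of WT (adjusted p = 0.0533) or DN4 replicate 1 of IkL/L (adjusted p = 0.0537) ended the DN4 call.

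Bst2, which encodes tetherin, a protein that holds budding virus at the cell surface, was higher in IkL/L DP cells. WT signals were 9.31 and 9.22 in DN3, 8.65 and 8.60 in DN4 and 6.23 and 6.69 in DP cells. IkL/L signals were 9.17 and 8.78, 8.62 and 8.46, and 8.0 and 7.50. The signals of the genotypes were close at DN3 and DN4, where the differences were -0.29 and -0.09 and did not pass, and apart at DP, where the difference was 1.29 ± 0.20 (adjusted p = 0.00201).

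Samhd1, whose product degrades deoxynucleotides and so limits retroviral replication, was lower in IkL/L DN4 cells. WT DN4 cells gave 10.08 and 9.74 and IkL/L DN4 cells 9.21 and 8.93, a difference of -0.85 ± 0.20 (adjusted p = 0.0293). At DN3 (WT 8.99 and 9.24, IkL/L 8.63 and 9.22) and at DP (WT 9.39 and 9.40, IkL/L 9.03 and 9.32) the difference was -0.19 and -0.22. The DN4 call was lost when any 1 DN4 array was left out: at adjusted p = 0.18 and 0.0711 without WT replicates 1 and 2, and at 0.066 and 0.22 without IkL/L replicates 1 and 2. It was also lost without the 3 IkL/L replicate 2 arrays (0.0942). Samhd1 has 4 further probe sets, whose DN4 differences were -1.06, -0.97, -0.50 and -0.04, the last from a probe set below the array median on every array. None of them passed over all probe sets, and on that test the brightest did not pass either (adjusted p = 0.0771).

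The oligoadenylate synthetase-like genes Oasl1 and Oasl2, which are neighbours in the genome, went opposite ways in DN3 cells. At DN3 Oasl2 gave 5.46 and 4.91 in WT and 5.87 and 6.61 in IkL/L cells, which differ by 1.06 ± 0.23 (adjusted p = 0.021). At DN4 and DP it lay at 3.62 to 4.38, below the array medians, in both genotypes. The call at DN3 was lost without replicate 2 of WT (0.78, adjusted p = 0.223), without replicate 2 of IkL/L (0.69, adjusted p = 0.143), without the 3 IkL/L replicate 2 arrays (adjusted p = 0.223) and in a fit on the DN3 arrays alone (adjusted p = 0.176). Oasl1 gave 5.78 and 5.94 in WT and 5.34 and 5.11 in IkL/L DN3 cells. They differ by -0.64 ± 0.19, which did not pass (adjusted p = 0.0908).

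The other antiviral genes did not pass at any stage. Ifit1, an RNA-binding inhibitor of viral translation, gave 5.90 and 6.39 in WT and 6.82 and 6.34 in IkL/L DN3 cells, which overlap and differ by 0.43 ± 0.29 (adjusted p = 0.511). In DP cells Ifit1, Ifit2, Ifit3, Oas2, Oas3, Rsad2 and Cmpk2 differed by -0.12 to 0.66. Rsad2, which encodes viperin, was high on IkL/L DN3 replicate 1 (8.49) and IkL/L DN4 replicate 1 (8.62), beside 6.88 to 7.64 on the other 10 arrays. Those are the same 2 arrays on which the neutrophil gene S100a8 (8.96 and 7.09) and the erythroid gene Alas2 (8.80 and 8.64) were high, and the part of such cells in the Rsad2 signal was not tested. Cmpk2, the neighbour of Rsad2, was 5.78 and 5.95 on these arrays, and its other values ran from 5.19 to 5.96. Ifit3 has a near-identical copy in the mouse genome, and its probes may read both.

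Of the 4 interferon-induced GTPases, Irgm1, which acts on vacuoles that hold bacteria or parasites, was higher in IkL/L DP cells. WT cells gave 8.92 and 8.69 in DN3, 8.45 and 8.28 in DN4 and 6.55 and 7.03 in DP cells. IkL/L cells gave 9.20 and 8.53, 8.67 and 8.73, and 8.04 and 8.30. The DP arrays were clearly apart, with a difference of 1.38 ± 0.22 (adjusted p = 0.00228), and the DN3 and DN4 differences were 0.06 and 0.33. The guanylate-binding protein genes Gbp2 and Gbp3 differed by 0.74 and 0.82 in DP cells without passing (adjusted p = 0.123 and 0.111), and Igtp, which encodes IRGM3, by -0.13.

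Parp12 was the only 1 of the 3 interferon-induced ADP-ribosyltransferase genes to pass the genotype test. Its product is a zinc-finger protein that restricts RNA viruses. WT cells gave 8.12 and 7.93 in DN3, 6.77 and 6.84 in DN4 and 6.08 and 6.33 in DP cells. IkL/L cells gave 8.26 and 7.64, 7.91 and 7.75, and 7.61 and 7.56. The WT signal fell in both steps and the IkL/L signal passed in neither. The genotype differences were -0.08, 1.02 ± 0.19 (adjusted p = 0.00711) and 1.38 ± 0.19 (adjusted p = 0.000794). The DN4 call was lost without WT DN4 replicate 1 (adjusted p = 0.0599) or 2 (0.0547) and without IkL/L DN4 replicate 1 (0.0636). Parp14 differed by 0.60 in DP cells (adjusted p = 0.0688) and Parp9 by 0.07.

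Epsti1, an interferon-induced gene first found in stroma-exposed epithelial cells, was lower in IkL/L cells at every stage. Samhd1 in DN4 cells was the other called gene with a lower signal in IkL/L cells. WT cells gave 8.21 and 8.15 in DN3, 7.32 and 7.58 in DN4 and 10.38 and 10.29 in DP cells. IkL/L cells gave 6.46 and 5.99, 6.33 and 5.87, and 8.32 and 8.45. Relative to WT the IkL/L signal stood at 25.7% (DN3), 39.3% (DN4) and 25.8% (DP). The differences were -1.96 ± 0.19 (adjusted p = 7.47e-05), -1.35 ± 0.19 (adjusted p = 0.00119) and -1.95 ± 0.19 (adjusted p = 5.91e-05). Epsti1 has 3 further probe sets, which reach the array median on 4, 3 and all 12 arrays in the order given next. One differed by -1.55, -0.90 and -2.39 at DN3, DN4 and DP, a second by -0.50, 0.22 and -3.02, and the third by -0.03, -0.36 and -0.48, so with the mean over probe sets the DN3 and DN4 differences were -1.01 and -0.60, still called.

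Rtp4, an interferon-induced chaperone that carries receptors to the cell surface, was higher in IkL/L DN4 and DP cells. WT cells gave 9.65 and 9.57 in DN3, 8.54 and 8.79 in DN4 and 7.92 and 7.84 in DP cells. IkL/L cells gave 10.03 and 9.96, 9.45 and 9.23, and 9.07 and 9.60. Each IkL/L array lay above both WT arrays of its stage. The difference was 0.38 in DN3 cells, which did not pass, 0.67 ± 0.17 in DN4 cells (adjusted p = 0.0387) and 1.45 ± 0.17 in DP cells (adjusted p = 0.000289). The DN4 call was lost when WT DN4 replicate 1 (adjusted p = 0.203) or 2 (0.0971), IkL/L DN4 replicate 1 (0.192) or 2 (0.104), or either WT DN3 array (0.0628 and 0.0628) was left out, and with a second quantile normalization (0.0674), the replicate block (0.0522) or the mean over probe sets (0.32, adjusted p = 0.175). Averaging with a dim second probe set also lowered the DP difference to 0.80, still called. Ifi35, Xaf1 and Ly6e differed by 0.48, 0.48 and 0.50 in DP cells (adjusted p = 0.0578, 0.073 and 0.126).

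The genotype difference itself changed between stages for 3 genes. Between DP and DN3 cells it was larger in DP cells for Usp18 by 1.64 ± 0.29 (adjusted p = 0.0149), for Bst2 by 1.58 ± 0.28 (adjusted p = 0.015) and for Parp12 by 1.46 ± 0.26 (adjusted p = 0.0159). These are 3 of 37 genes in this direction, beside 1.38% of all tested genes, and 0 in the other, beside 0.352%. At an unadjusted p under 0.05 the counts were 15 and 0. Each call was lost when WT DN3 replicate 1 was left out (adjusted p = 0.0847, 0.0821 and 0.0928) and in a fit on the DN3 and DP arrays alone (0.0632, 0.0622 and 0.0642). Without 1 of WT DP replicate 1, IkL/L DN3 replicate 2 and IkL/L DP replicate 2 the count was 1 in place of 3, without WT DP replicate 2 it was 5 and without IkL/L DN3 replicate 1 it was 6. Bst2 was also lost without WT DN3 replicate 2 (0.0573), and Bst2 and Parp12 without IkL/L DP replicate 1 (0.0532 and 0.0555). Without the 3 IkL/L replicate 2 arrays only Bst2 was called, with Usp18 at adjusted p = 0.183 and Parp12 at 0.0978.

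**Figure D4:**
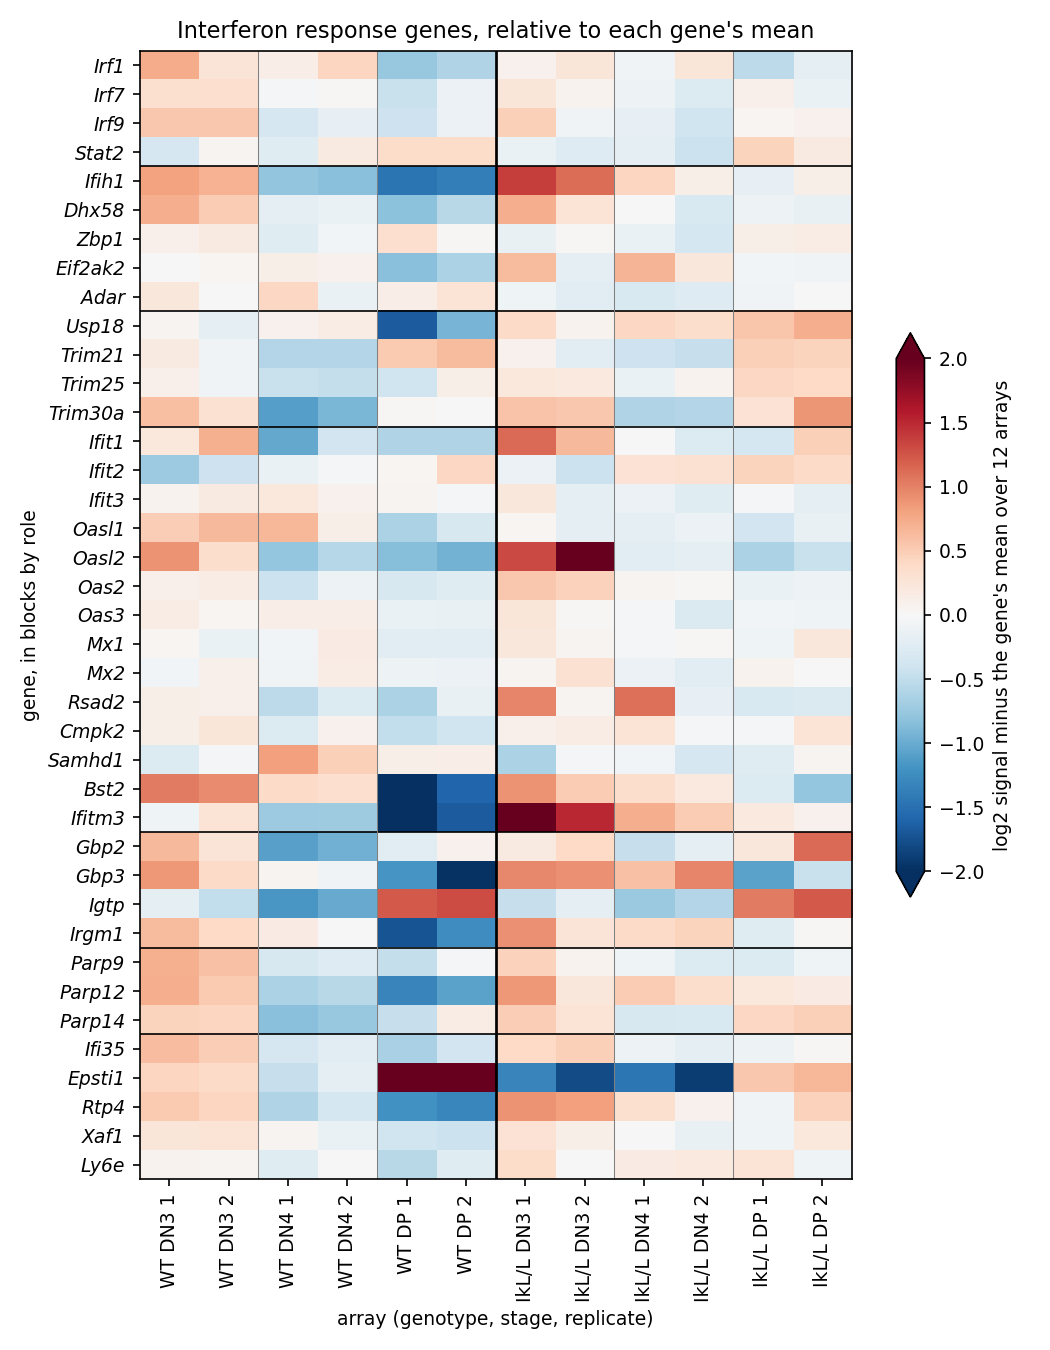
Log2 signal of each of the 39 genes on each of the 12 arrays, minus the mean of that gene, with colours cut at -2 and 2. Genes stand in blocks by role, from transcription factors at the top to other induced genes at the bottom. In the WT columns many rows turn from red at DN3 to blue at DP, while in the IkL/L columns Usp18, Bst2, Ifitm3, Irgm1, Parp12 and Rtp4 stay higher at DP than in WT, and Epsti1 is low.

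From DN3 to DN4 many of the genes fell in WT cells. Of 37 tested genes 16 were lower at DN4 (all tested genes 7.7%) and 1 was higher (all tested genes 1.55%), with a median difference over the 39 genes of -0.49 beside -0.03 over all genes. The 5 largest falls were Ifih1 (-1.56), the GTPase gene Gbp2 (-1.47), the ubiquitin ligase gene Trim30a (-1.46), Oasl2 (-1.30) and Parp14 (-1.23), and all 3 ADP-ribosyltransferase genes were lower. Gbp2 went from 9.34 and 8.96 in WT DN3 to 7.62 and 7.73 in WT DN4 cells, and Trim30a from 9.49 and 9.20 to 7.80 and 7.98. Parp14 went from 9.09 and 9.08 to 7.82 and 7.89. In none of these did the stages overlap. Samhd1 rose, by 0.80 (adjusted p = 0.0295), a call that was lost when any 1 WT DN3 or DN4 array was left out (adjusted p = 0.267, 0.0666, 0.224 and 0.0545).

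The same step in IkL/L cells gave 6 lower genes (all tested genes 3.19%) and 0 higher (all tested genes 1.2%; 1 at an unadjusted p under 0.05), with a median of -0.28. They were Oasl2 (-1.88), Ifitm3 (-1.23), Trim30a (-1.14), Ifih1 (-0.98), Parp14 (-0.70) and Ifi35 (-0.59). Gbp2, at 8.87 and 9.09 in IkL/L DN3 and 8.24 and 8.51 in IkL/L DN4 cells, did not pass. Trim30a went from 9.46 and 9.43 to 8.30 and 8.31, and Parp14 from 9.14 and 8.93 to 8.33 and 8.35. Whether the counts of 17 and 6 called genes differ between the genotypes was not tested. The WT count went from 17 to 5 without WT DN3 replicate 1, to 6 without WT DN4 replicate 1 and to 11 without WT DN4 replicate 2, and the IkL/L count from 6 to 3 without IkL/L DN3 replicate 1 and to 2 without IkL/L DN4 replicate 2, where Ifih1, Ifitm3 and Parp14 missed the threshold (adjusted p = 0.054, 0.103 and 0.195). Ifitm3 was also lost without IkL/L DN3 replicate 1 (0.0508), and Parp14 when any 1 of 10 arrays was dropped (0.201 at most) or the 3 IkL/L replicate 2 arrays (0.24). In WT cells Gbp2 and Oasl2 were lost without WT DN3 replicate 1 (adjusted p = 0.0575 and 0.0647), and Oasl2 also without WT DN4 replicate 1 (0.0537).

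From DN4 to DP the list split in WT cells. There 14 genes fell (37.8% of those tested; all tested genes 33.2%) and 6 rose (16.2%; all tested genes 23.8%), shares near the background of a step in which most genes changed. The median was -0.23 beside -0.15. The 5 largest falls were Bst2 (-2.17 ± 0.20), Gbp3 (-1.57 ± 0.27), Irgm1 (-1.57 ± 0.22), Usp18 (-1.41 ± 0.21) and Ifitm3 (-1.24 ± 0.23). The 5 largest rises were Epsti1 (2.89 ± 0.19), the GTPase gene Igtp (2.35 ± 0.15), the antibody receptor and ubiquitin ligase gene Trim21 (1.17 ± 0.14), Trim30a (1.01 ± 0.18) and Gbp2 (0.96 ± 0.25). Igtp went from 8.78 and 8.94 in WT DN4 to 11.17 and 11.26 in WT DP cells, Trim21 from 8.86 and 8.87 to 9.98 and 10.08, and Gbp3 from 8.03 and 7.92 to 6.80 and 6.01. Genes of 1 class thus moved in both directions: of the 4 GTPases, Gbp2 and Igtp rose and Gbp3 and Irgm1 fell. The rise of Gbp2 did not pass with the actin difference of each array as a covariate (0.70, adjusted p = 0.0703).

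In IkL/L cells the step from DN4 to DP had 8 rises (21.6%; all tested genes 19.5%) and 2 falls (5.41%; all tested genes 26%), and the median was 0.08. The rises included the same 5 leading genes as in WT: Epsti1 (2.28 ± 0.19), Igtp (1.80 ± 0.15), Trim30a (1.18 ± 0.18), Gbp2 (1.00 ± 0.25) and Trim21 (0.90 ± 0.14). Igtp went from 9.21 and 9.37 to 10.99 and 11.18, and Trim21 from 9.04 and 8.98 to 9.93 and 9.90. The falls were Gbp3 (-1.54 ± 0.27; from 8.56 and 8.96 to 6.91 and 7.54) and Bst2 (-0.79 ± 0.20). The call of Bst2 was lost without IkL/L DP replicate 2 (-0.54, adjusted p = 0.0783) and without the 3 IkL/L replicate 2 arrays (adjusted p = 0.0716). That of Gbp2 was lost without IkL/L DP replicate 2 (0.54, adjusted p = 0.0722), without IkL/L DN4 replicate 1 (0.0544) and without the 3 arrays (0.0544).

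The step from DN4 to DP differed between the genotypes for Usp18 and Bst2. Both genotypes were measured on separate arrays, so their steps share no sample. The IkL/L step exceeded the WT step by 1.66 ± 0.29 for Usp18 (adjusted p = 0.0211) and by 1.38 ± 0.28 for Bst2 (adjusted p = 0.0446), which are 2 of 37 genes beside 0.661% of all tested genes. In the other direction 0 passed (2 at an unadjusted p under 0.05), beside 0.326% of all genes. Usp18 fell by 1.41 in WT cells and was at 0.25 in IkL/L cells, while Bst2 fell in both. Irgm1, Ifitm3 and Irf1 had values of -0.53, -0.48 and -0.45 in IkL/L cells, beside -1.57, -1.24 and -0.97 in WT cells, and for these the difference did not pass. The Usp18 call was lost without any 1 DN4 array (adjusted p = 0.0759 to 0.119), without IkL/L DP replicate 2 (0.106) and without the 3 IkL/L replicate 2 arrays (0.171). The Bst2 call was lost without any 1 of 8 of the 12 arrays (adjusted p up to 0.192), with arrays centred on their median (0.0717), with the replicate block (0.063) and without the 3 arrays (0.072).

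**Figure D5:**
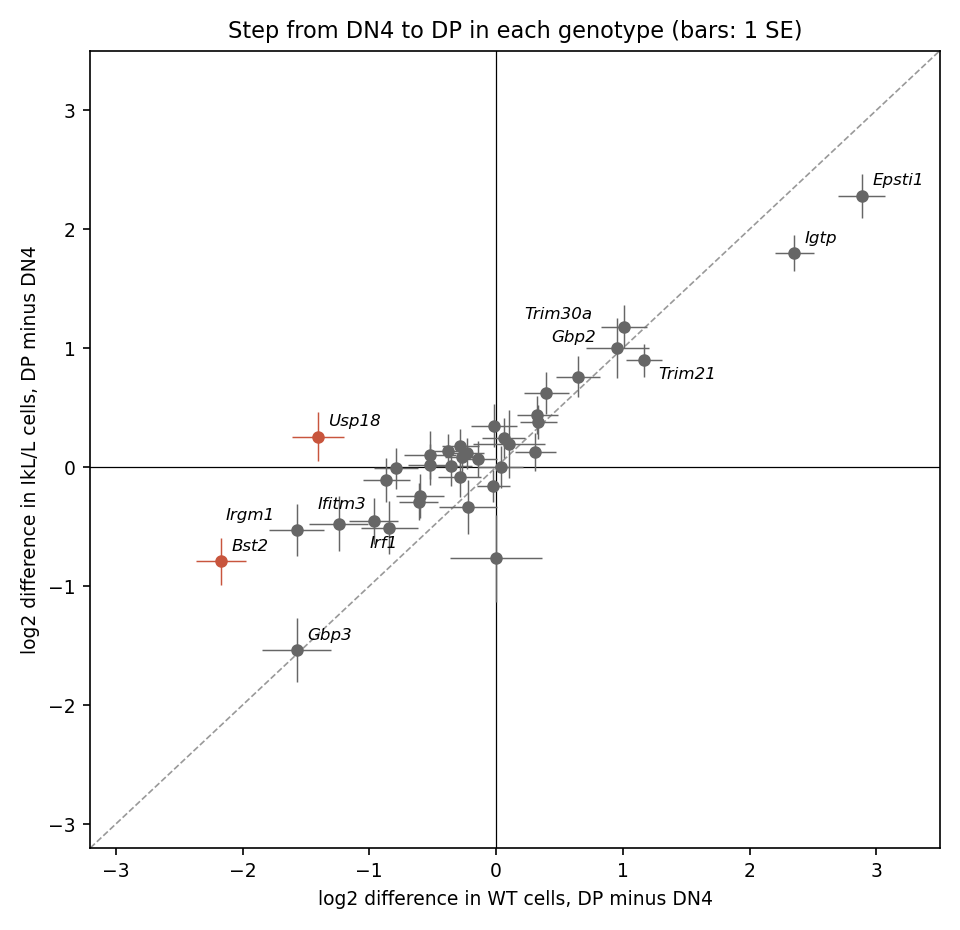
Log2 difference between DP and DN4 cells in WT (horizontal axis) and in IkL/L (vertical axis) for the 37 tested genes, with bars of 1 standard error and a dashed line where both are equal. Usp18 and Bst2, coloured, are the genes whose steps differed in the test. Epsti1 and Igtp lie at the upper right, and Gbp3 lies on the line.

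The other genes of the pathway, a list of 51 interferons, receptors, kinases, STAT and IRF factors, sensors and inhibitors, of which 38 were tested, had called genotype differences in DN3 and DP cells. In limma 0 were higher and 2 lower in DN3 cells (0% and 5.26%; all tested genes 2.08% and 2.21%), 0 and 0 in DN4 cells (all tested genes 4.4% and 2.48%), and 3 and 1 in DP cells (7.89% and 2.63%; all tested genes 4.36% and 1.62%). At an unadjusted p under 0.05 the counts were 0 and 11, 3 and 5, and 5 and 3. The gene of interferon gamma itself, Ifng, was lower in IkL/L DN3 cells: 7.04 and 7.03 in WT against 4.94 and 5.44 in IkL/L, lower by a log2 value of -1.85 ± 0.16 (adjusted p = 3.1e-05). At DN4 and DP it was below the array median on every array, at 3.51 to 4.30. Socs3, an inhibitor of cytokine receptor signalling, was lower in IkL/L DN3 cells (9.77 and 9.46 in WT, 8.64 and 8.90 in IkL/L; -0.85, adjusted p = 0.0213) and higher in IkL/L DP cells (9.28 and 9.56 in WT, 9.92 and 10.35 in IkL/L; 0.71, adjusted p = 0.0396). Its genotype difference changed between these stages by 1.56 (adjusted p = 0.0103), and that of Ifng by 2.01 (adjusted p = 0.000719). These are 2 of 38 genes (5.26%), beside 1.38% of all tested genes. In the other direction 0 passed, beside 0.352%.

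The remaining pathway genes that differed did so in DP cells. Cgas, the DNA sensor, was 6.90 and 7.21 in WT and 7.71 and 7.67 in IkL/L DP cells, a difference of 0.64 ± 0.15 (adjusted p = 0.0298). Irf4, a lymphoid factor of the IRF family, was higher by 0.54 ± 0.14 (5.22 and 5.45 against 5.78 and 5.96; adjusted p = 0.0378). Irf8, a factor of dendritic and other blood cells, was lower by 0.65 ± 0.16 (5.75 and 5.86 against 5.06 and 5.24; adjusted p = 0.0298). From DN4 to DP 16 of these 38 genes rose and 14 fell in WT cells (42.1% and 36.8%; all tested genes 23.8% and 33.2%). In IkL/L cells 14 rose and 9 fell (36.8% and 23.7%; all tested genes 19.5% and 26%).

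A further list of 93 interferon-inducible genes that are not among the 41, of which 61 were tested, had 8 higher and 1 lower in IkL/L DP cells (13.1% and 1.64%; all tested genes 4.36% and 1.62%), with a median of 0.21 beside 0.03 over all genes. The counts were 2 higher and 3 lower in DN4 cells (3.28% and 4.92%; all tested genes 4.4% and 2.48%), and 2 higher and 2 lower in DN3 cells (3.28% each; all tested genes 2.08% and 2.21%). The GTPase gene Iigp1 gave 4.85 and 4.47 in WT DP cells, below the array median, and 5.84 and 7.91 in IkL/L DP cells, a difference of 2.21 ± 0.48 (adjusted p = 0.0163) with its 2 IkL/L arrays far apart. H2-K1, a class I histocompatibility gene, was higher by 1.20 ± 0.32 (8.65 and 8.42 against 9.11 and 10.37; adjusted p = 0.047), also through IkL/L DP replicate 2 above all, the array with the high Il7r and Klf2 signals. The immunoproteasome genes Psmb9 and Psmb10, which serve class I antigen presentation, were higher by 0.70 and 0.65, and Lap3, Ifi47, Oas1a and Tnfsf10 by 0.79, 0.76, 0.67 and 0.64.

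Gbp6, a guanylate-binding protein gene, was lower in IkL/L cells at all 3 stages, by -0.81, -0.74 and -0.71, and Oas1a, an oligoadenylate synthetase gene with close copies in the mouse, was higher at all 3, by 0.80, 0.75 and 0.67. Sp100, a nuclear body gene, was lower by -0.75 in DN3 and -0.81 in DN4 cells. Cd74, the class II invariant chain, was higher by 0.85 in DN3 and lower by -0.74 in DN4 cells, and Slfn2 was higher by 0.58 in DN4 cells. Psmb9 was the only 1 of the 61 whose genotype difference changed between DP and DN3 cells, by 0.90 (adjusted p = 0.0493). That is 1.64% of the 61, near the 1.38% of all tested genes in this direction. From DN3 to DN4 2 of the 61 rose and 19 fell in WT cells, and 0 rose (3 at an unadjusted p under 0.05) and 8 fell in IkL/L cells. These are 3.28% and 31.1% in WT (all tested genes 1.55% and 7.7%) and 0% and 13.1% in IkL/L cells (all tested genes 1.2% and 3.19%).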

How the data were processed

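Per the labels, total RNA of sorted thymocytes was amplified in 2 rounds into biotin-labelled cRNA, in 3 labelling series; no label ties a sample to a series, and that batch was not tested. The authors deposited log2 signals, 1 for each probe set and array, made with RMA (background correction, quantile normalization and summary of probes) per the submitters' processing notes; version and genome build are not given in the sources used here. They ran from 2.68 to 14.7, with 75th percentiles of 7.34 to 7.57. Precision is limited by having 2 arrays a group; there is no read depth.

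Of 45099 probe sets, 34958 carried 1 symbol, 932 several and 9209 none; only the first were used. The gene table held 34754 of them and changed 0 symbols. Each of 18194 genes was read from its brightest probe set, and 11649 with at least 2 arrays at or above their array's median entered the test (limma 3.58.1, R 4.3.3): 1 mean per group over all 12 arrays, 6 residual and 5.67 prior degrees of freedom, Benjamini-Hochberg adjusted p under 0.05 over all tested genes. The code was tested on simulated data.

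The genes, lists and tests were chosen with earlier results of these data known. The difference between genotypes in the step from DN4 to DP was added after the data were seen. Named with values were genes called in a genotype contrast or interaction (filled to 6 by size where fewer were called at a stage), the 5 largest called rises and falls of each step, and up to 8 genes of other lists per stage that were called; Rsad2, Irf7, Irf9 and other uncalled genes were chosen after their values were seen. These genes have 29 further probe sets, 21 of them at or above the array median on at least 2 arrays; of these 6, 5 and 3 had the opposite sign to the brightest in DN3, DN4 and DP cells, and only those of called genes and of Adar, Eif2ak2 and Trim25 are described. Other lists covered 10 cell types or stages and sex-linked genes. Deviations of same-numbered arrays from their group means correlated from -0.338 to 0.0624 between genotypes (9 pairs of groups), from 0.147 to 0.317 within WT and from 0.0149 to 0.494 within IkL/L (3 pairs each), so replicate numbers did not pair the arrays across genotypes, and a block within each genotype was added after the data were seen for the steps and their differences. The alternatives were no filter, a filter at the 75th percentile, averaging probe sets, array weights, a prior with trend and robust estimation, median centring, a second quantile normalization, the replicate block, only the arrays of a contrast, the actin covariate, the 3 IkL/L replicate 2 arrays left out, and each array left out.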

Additional observations from a re-analysis of the deposited data

Results flagged for a closer look

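Several genotype differences changed with the stage by a test of the change itself. From DN3 to DP the difference between IkL/L and WT cells grew by 1.64 for Usp18, by 1.58 for Bst2 and by 1.46 for Parp12 on the log2 scale. From DN4 to DP it grew by 1.66 for Usp18 and by 1.38 for Bst2. Each of these calls was lost under some alternatives, as given above, and both comparisons use the same DP arrays. The groups hold 2 arrays each, too few to look for a single array far from its group.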

How the results depend on the processing

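Results were recomputed under 12 alternatives, of which the block within genotype could be fitted for the steps and their differences only, and without each of the 12 arrays in turn, where a lone array is assumed to vary like the others. Of 17 called genotype differences 12 kept their call under every alternative, 5 lost it under some and 0 changed direction. Those 12 include the 8 in DP cells. For genes below the array median, such as Oasl2 at DN4 and DP, the signal may be mostly background, so a further fall may be missed. Ifng, also below it at these stages, still passed as lower in WT DP than in WT DN4 cells, by -0.68 (limma adjusted p = 0.00279).

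The count of genes called in DN4 cells (6) was 10 with array weights, 10 on the DN4 arrays alone, and 2 to 7 without 1 array. That in DP cells (8) was 14 with the actin covariate and 8 to 11 without 1 array. Of the change between DP and DN3 cells (3), the count was 5 with the trend and robust prior, 0 on the arrays of the contrast alone, 1 without the 3 IkL/L replicate 2 arrays and 0 to 6 without 1 array. Of the change between DP and DN4 cells (2), it was 1 with median centring, 1 with the replicate block, 0 without the 3 arrays and 0 to 2 without 1 array. The step from DN3 to DN4 in WT cells (17) gave 5 to 19 without 1 array. In IkL/L cells (6) it gave 2 on the arrays of the contrast alone, 11 with the actin covariate and 2 to 7 without 1 array. The median difference over the genes in DN3 cells (-0.049) turned to 0.10 without the 3 arrays, and was -0.073 to 0.10 without 1 array. In DN4 cells (0.21) it was 0.058 with a second quantile normalization. The cause of these shifts was not tested. Pairing arrays by replicate number left 3, 5 and 8 called genes in DN3, DN4 and DP cells, and took the call from Rtp4 in DN4 cells (adjusted p = 0.0522), from Bst2 in the change between DN4 and DP cells (0.063) and from Parp14 in the IkL/L step from DN3 to DN4 (0.0557), and from no other of the 53 named results. Pairing by number within each genotype, added after the data were seen, could be fitted for the steps and the changes between stages. It ended no call, gave 10 genes in place of 6 in the IkL/L step from DN3 to DN4, and otherwise left counts within 1.5 times.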
